A study of Homo sapiens with 32 samples.

Results

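The loci described here are those of 10 human genes of the Wnt pathway and of intestinal stem cells: LGR5, RNF43, ZNRF3, AXIN2, NKD1, CTNNB1, TCF7L2, ASCL2, SOX9 and EPHB2. A peak of HNF4α chromatin immunoprecipitation sequencing (ChIP-seq) was assigned to a locus when its summit lay within 50 kb of the gene's GRCh38 span. By this rule 381 of the 337294 peaks in 18 deposited lists belonged to the 10 loci, out of 20033 protein-coding genes. HNF4α is a nuclear receptor of liver, gut and pancreas, and its gene has a P1 and a P2 promoter. P1 isoforms such as α2 carry the N-terminal activation domain AF-1, which P2 isoforms such as α8 lack.

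Each list came from 1 library of a pancreatic ductal adenocarcinoma cell line. In Panc10.05 and BxPC3, doxycycline induced the P1-α2 or the P2-α8 isoform, and binding was mapped with an antibody to all HNF4α (PP-H1415, called pan here). The dose in Panc10.05 was 25 ng/mL for the P1-α2 isoform but 12.5 ng/mL for P2-α8. Here isoform and dose therefore differed together, whereas BxPC3 received 500 ng/mL for both. AsPC1 cells were subjected to CRISPR interference with a control guide (sgNC) or guides labelled sgP1 and sgP2, and were mapped with the pan antibody in all 3 genotypes and with an antibody to P1 isoforms (PP-K9218) in sgNC and sgP2. Each of these 9 groups had 2 libraries. Whether an induced line was 1 clone is not given in the sources used here, and the peak lists hold no expression values, so induction and silencing of HNF4A were not checked. The titles of the BxPC3 P2-α8 libraries name α8 together with P1, while their genotype label reads P2-α8, and the genotype label was followed.

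In the canonical Wnt pathway, a destruction complex keeps β-catenin low until Wnt ligands engage Frizzled and LRP receptors. Stabilised β-catenin then joins TCF/LEF factors on DNA and raises a set of targets, several of which feed back to damp the signal. The pathway maintains the stem cells of the intestinal crypt, where HNF4α is best known as a factor of differentiated epithelium.

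The lists held 260 to 41808 peaks, and sequencing depth is unknown, so a missing peak means that none was called, not that binding was absent. AsPC1 lists went down to a −log10 q near 2, those of the other lines to one near 8, so peak numbers were not compared between AsPC1 and the other lines. Library names carry a different prefix in each line, and the labels do not say what it marks, so that and the line cannot be told apart. Strength is given as the percentile of a peak's deposited fold enrichment within its own list, 100 being the strongest, and serves only to place a peak within that list. The loci are long, with a median span of 82.9 kb against 24.1 kb for all protein-coding genes, and a longer span can hold more peaks. Exons and introns were not resolved, because only gene spans were used.

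Promoter sequence from RefSeq (GRCh38.p14) was at hand for 4 of the 10 genes, CTNNB1, TCF7L2, RNF43 and EPHB2. In 3 of them a peak reached the window from 250 bases before to 50 bases after a RefSeq start, and those windows are shown. At RNF43 the peaks lay upstream and did not reach the start itself. Each is written 5′ to 3′ along its gene, and capitals mark bases that lie inside the peaks of at least 2 lists.
CTNNB1, chr3:41199255-41199554, plus strand: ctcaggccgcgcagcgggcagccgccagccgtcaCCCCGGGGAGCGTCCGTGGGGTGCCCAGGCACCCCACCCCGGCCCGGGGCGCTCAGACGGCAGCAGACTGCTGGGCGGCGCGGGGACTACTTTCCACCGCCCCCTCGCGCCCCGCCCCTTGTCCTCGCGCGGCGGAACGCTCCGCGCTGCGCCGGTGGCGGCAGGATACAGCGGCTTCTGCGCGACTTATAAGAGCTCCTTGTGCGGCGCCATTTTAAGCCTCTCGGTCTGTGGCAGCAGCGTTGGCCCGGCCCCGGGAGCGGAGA
TCF7L2, chr10:112949997-112950296, plus strand: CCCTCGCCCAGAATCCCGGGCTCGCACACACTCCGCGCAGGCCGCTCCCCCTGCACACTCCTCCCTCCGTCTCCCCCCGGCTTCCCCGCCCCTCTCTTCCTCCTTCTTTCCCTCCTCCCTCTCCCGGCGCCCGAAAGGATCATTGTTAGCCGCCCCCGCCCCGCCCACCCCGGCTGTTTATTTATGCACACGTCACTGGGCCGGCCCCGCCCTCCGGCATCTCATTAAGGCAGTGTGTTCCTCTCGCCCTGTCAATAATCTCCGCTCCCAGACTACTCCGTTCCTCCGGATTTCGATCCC
RNF43, chr17:58417485-58417784, minus strand: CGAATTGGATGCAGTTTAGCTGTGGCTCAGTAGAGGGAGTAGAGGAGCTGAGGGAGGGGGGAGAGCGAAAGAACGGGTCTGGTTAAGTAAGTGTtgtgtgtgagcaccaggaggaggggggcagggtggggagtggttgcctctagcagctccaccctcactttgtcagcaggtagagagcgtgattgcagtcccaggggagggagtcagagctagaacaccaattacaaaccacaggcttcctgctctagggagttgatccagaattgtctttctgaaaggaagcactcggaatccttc
At CTNNB1 the covering peaks were those of the Panc10.05 P2-α8 libraries, with summits 202 and 38 bases before the start. At TCF7L2 peaks of 7 lists reached the window, with summits 617 to 949 bases before the start. All 300 bases were covered by the pan peaks of both AsPC1 sgNC lists and of sgP2 replicate 2. The peaks of the other lists ended before the start. At RNF43 peaks of 3 lists reached the upstream end of the window, where 94 bases lay in at least 2 of them, and their summits lay 255, 306 and 416 bases before the start. No list had a peak in the EPHB2 windows. Neither the HNF4 motifs CAAAGTCCA and AGGTCAAAG nor the TCF/LEF motifs CTTTGAA and CTTTGAT, searched on both strands, occurred in the 3 windows shown. Over 35116 RefSeq promoters of the same length the 4 motifs were found in 0.38%, 0.28%, 4.43% and 2.62%, respectively. TCF/LEF motifs with other letters and sequence outside the windows were not searched.

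The 381 peaks merged into 85 sites, of which 50 lay inside a member gene and 35 outside. For 73 of the 85 the member was the nearest protein-coding gene, and the others lay nearer to or inside neighbours such as ULK4 at CTNNB1, HSF5 and TSPOAP1 at RNF43, SNX20 at NKD1 and LACTBL1 at EPHB2. TCF7L2 carried the most sites, 22, followed by EPHB2 with 14 and ZNRF3 with 10, while LGR5 had 2. Of the 85 sites, 19 were in 1 list only and 4 were in all 14 lists of the pan antibody. Those 4 were at EPHB2, AXIN2 and, for 2 of them, TCF7L2. The lists differed in length, and the same counts over all sites are not given. Among sites in both lists of a pan group, 20.0% at these loci were so in all 3 lines, against 12.7% of all such sites.

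**Figure D1:**
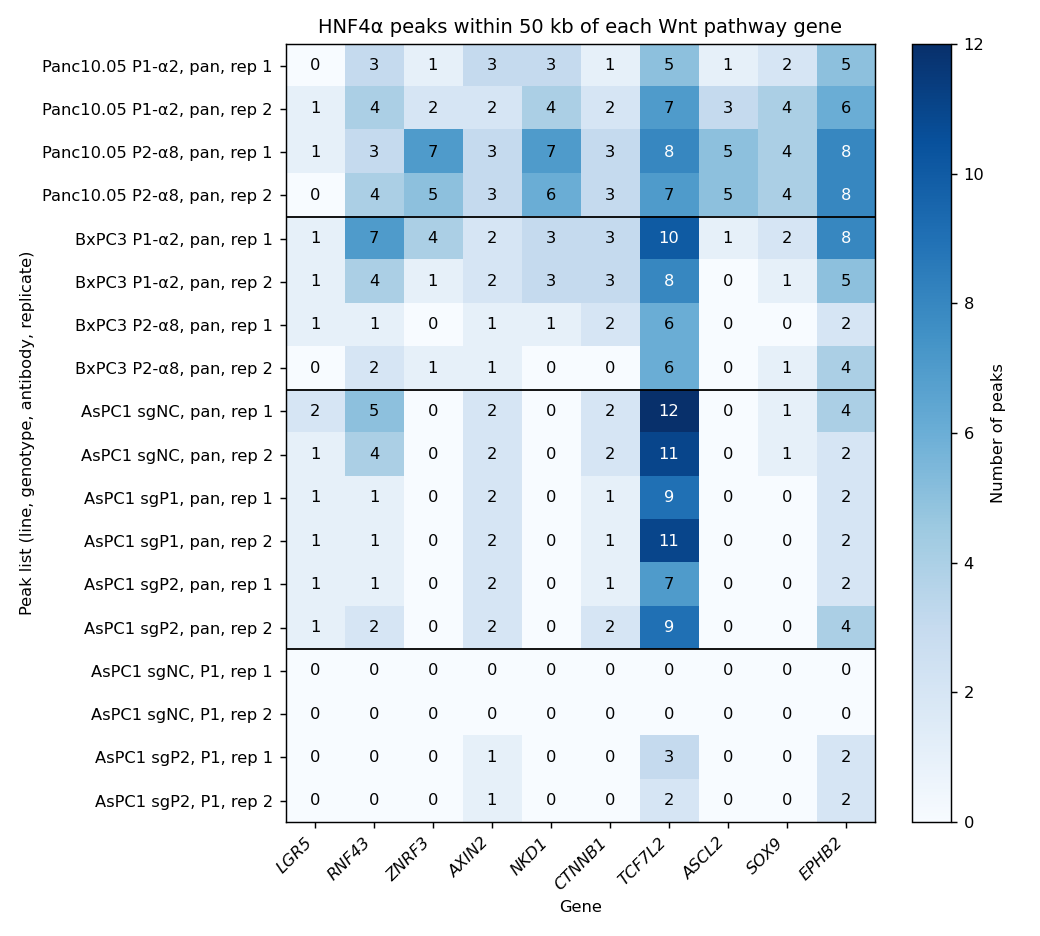
Number of HNF4α peaks with a summit within 50 kb of each gene (columns) in each of the 18 lists (rows; darker blue, more peaks; black lines separate lines and antibodies). TCF7L2 reached 12 peaks in 1 AsPC1 sgNC list, whereas ASCL2, ZNRF3 and NKD1 had 0 in every AsPC1 list. A pan peak in AsPC1 was called at 15211 of 20033 protein-coding genes.

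Among the receptor-level genes, LGR5, the R-spondin receptor that marks crypt stem cells, had its called peaks mainly at one site in AsPC1 and at another in the other lines. Its first site, chr12:71469117-71469587, lay 30.2 kb into the span and was called in 1 of 2 libraries of each Panc10.05 group (percentiles 53.3 and 31.4), in both BxPC3 P1-α2 libraries (94.7 and 83.9), in 1 BxPC3 P2-α8 library (68.9) and in 1 AsPC1 sgNC library (52.5). The other site, chr12:71492441-71493107, lay 53.7 kb into the span and was called in all 6 AsPC1 pan lists and in no other. Its percentiles there were 86.1 and 73.9 in sgNC, 81.6 and 64.2 in sgP1, and 61.4 and 28.8 in sgP2. Neither Panc10.05 group had an LGR5 peak in both libraries.

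RNF43 and ZNRF3 encode membrane ubiquitin ligases that take Frizzled receptors off the cell surface. RNF43 had 9 sites, and the most frequent, chr17:58394441-58395047, lay 22.8 kb inside the gene and was called in 12 pan lists, at percentiles from 13.4 to 81.2. It missed the first replicates of BxPC3 P2-α8 and AsPC1 sgP1. The control-guide libraries of AsPC1 held 5 and 4 RNF43 peaks, against 1 and 1 with sgP1 and 1 and 2 with sgP2, and the guide groups lay below the control without overlap. RNF43 and SOX9 were the 2 of 7 genes with a pan peak in AsPC1 for which this held, against 9.89% of all such genes, and the sgNC lists held 24295 and 15118 peaks in all against 11686 to 15116 with the guides. For SOX9 this rested on 1 peak in each sgNC library, at different sites and at −log10 q of 5.71 and 3.73. At RNF43 several peaks also had a −log10 q under 8. In sgNC these stood at 3.0, 5.18 and 7.16 in replicate 1 and at 7.02 and 7.67 in replicate 2. With the guides they stood at 7.74 in sgP1 replicate 2, 4.52 in sgP2 replicate 1 and 6.86 in sgP2 replicate 2. BxPC3 had 7 and 4 RNF43 peaks with P1-α2 and 1 and 2 with P2-α8, while Panc10.05 had 3 and 4 with either isoform.

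ZNRF3 peaks were called in Panc10.05 and BxPC3 lists only. The site chr22:28931634-28932652, inside the gene, was called in all 4 Panc10.05 lists (67.6 and 68.7 with P1-α2, 81.0 and 85.9 with P2-α8), in both BxPC3 P1-α2 lists (73.4 and 78.4) and in 1 BxPC3 P2-α8 list (7.4). No AsPC1 list had any of the 10 ZNRF3 sites. AsPC1 lists reach to lower −log10 q, but the AsPC1 pan lists held 11686 to 24295 peaks. The Panc10.05 and BxPC3 P1-α2 lists held 24828 to 41808. BxPC3 P2-α8 lists, of 12681 and 14666 peaks, had 0 and 1 ZNRF3 peaks. Of all protein-coding genes, 58.5% had a peak in both sgNC lists of the pan antibody. A pan peak in any AsPC1 list was called at 15211 of the 20033 protein-coding genes and at 7 of the 10 genes. Panc10.05 had 1 and 2 peaks with P1-α2 and 7 and 5 with P2-α8, which did not overlap. More peaks in each P2-α8 list than in either P1-α2 list of Panc10.05 were found at 5 of the 10 genes (ASCL2, CTNNB1, EPHB2, NKD1 and ZNRF3), against 27.1% of all genes with a peak in these lists. The ZNRF3 site chr22:29018254-29018760 was called at percentiles 81.0 and 75.3 in the P2-α8 libraries of Panc10.05 and in no other list.

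**Figure D2:**
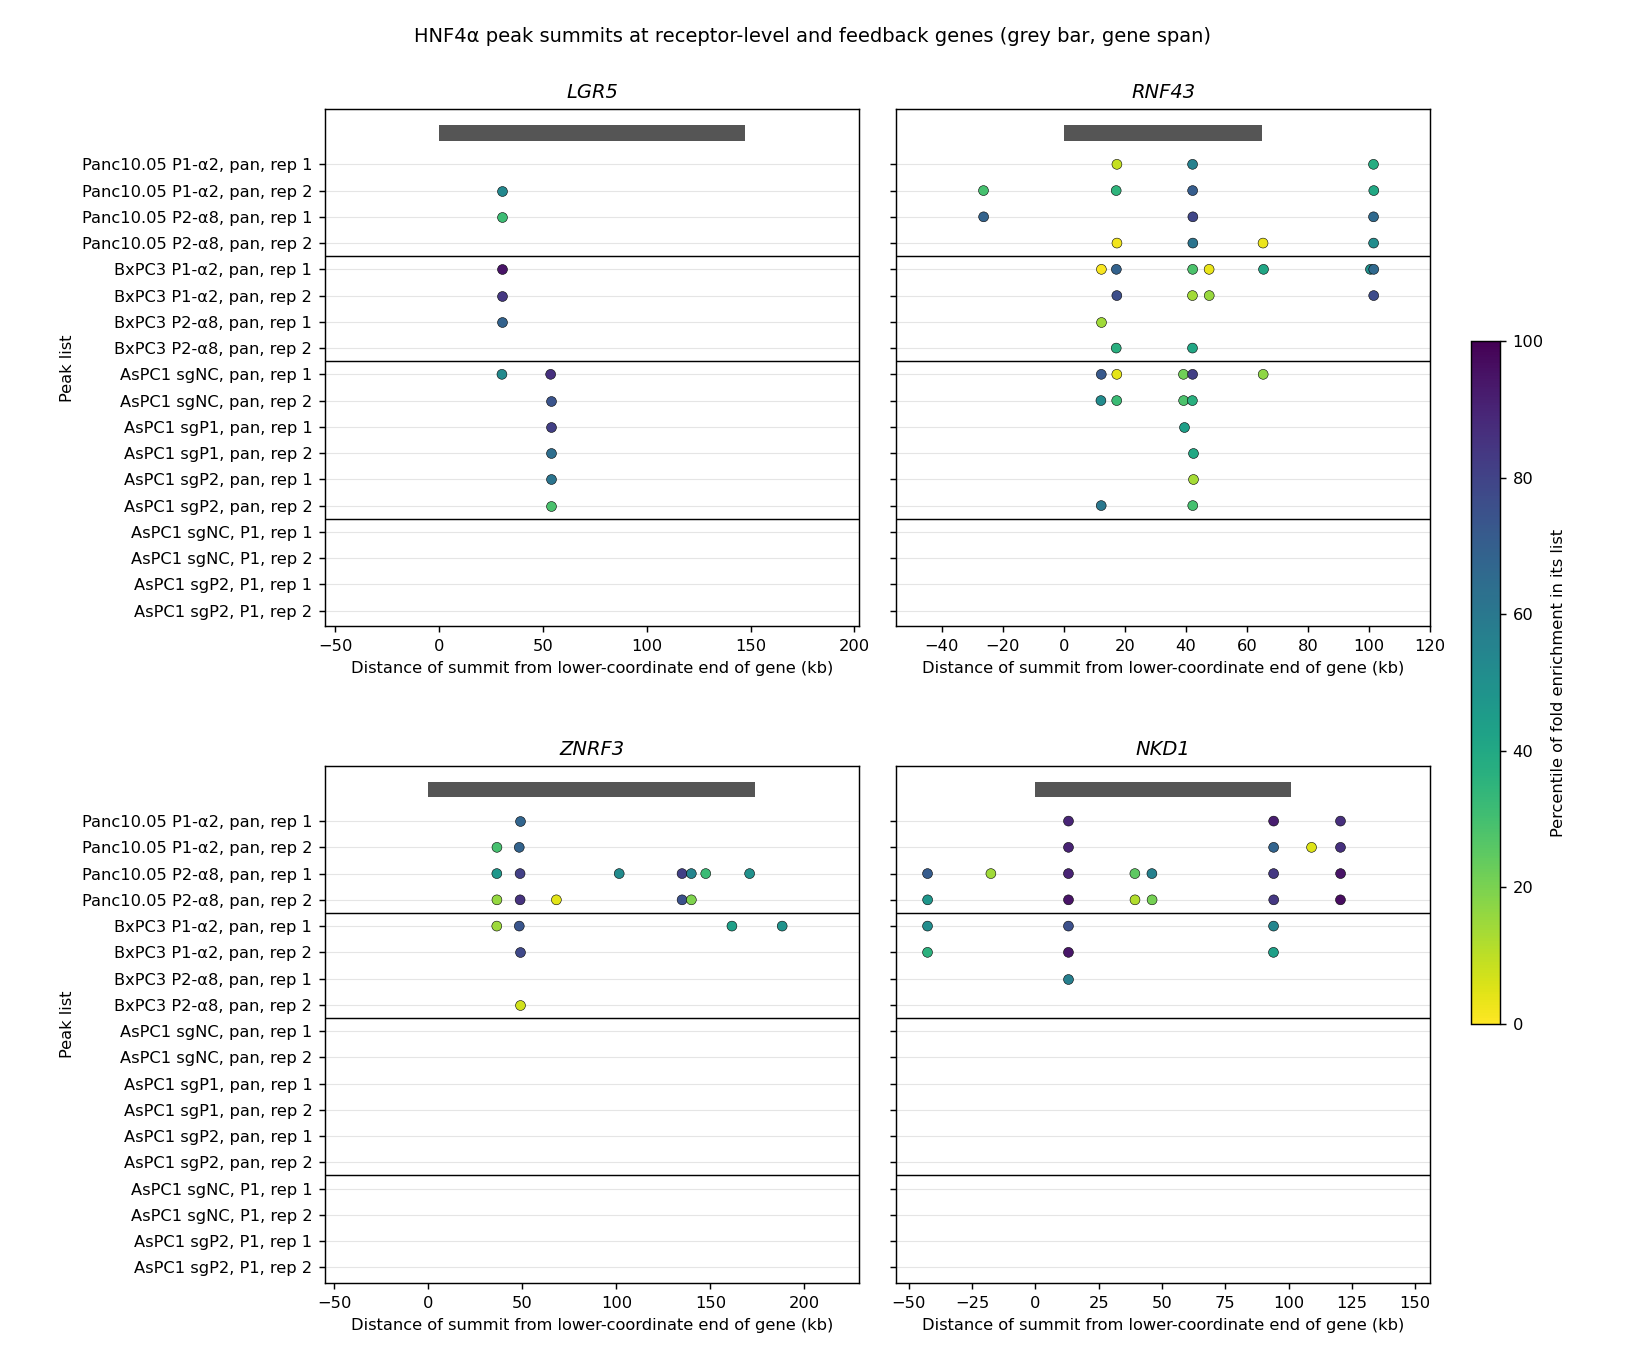
Positions of HNF4α peak summits at LGR5, RNF43, ZNRF3 and NKD1 (x axis, distance in kb from the lower-coordinate end of the gene; rows, the 18 lists; colour, percentile of fold enrichment in its list; grey bar, gene span). At LGR5 all 6 AsPC1 pan lists have a summit 53.7 kb into the span, the BxPC3 summits and 1 further AsPC1 sgNC summit stand at 30.2 kb, and ZNRF3 and NKD1 have no AsPC1 summit.

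AXIN2, a scaffold of the destruction complex that is itself a Wnt target, held a site that was strong in most pan lists. The peak inside the gene at chr17:65546891-65547693 was called in all 14 pan lists. Its percentiles were 92.9 and 90.8 in Panc10.05 P1-α2, 83.9 and 95.7 in Panc10.05 P2-α8, 96.0 and 97.7 in BxPC3 P1-α2, and 93.8 and 97.6 in BxPC3 P2-α8. In AsPC1 the site stood at 94.3 and 89.1 with sgNC, 80.4 and 58.4 with sgP1, and 76.8 and 85.3 with sgP2. A second AXIN2 site, chr17:65587977-65588845, 26.8 kb beyond the higher-coordinate end, was called in 12 pan lists and was missing from both BxPC3 P2-α8 lists.

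NKD1 encodes a Dishevelled-binding inhibitor that is induced by Wnt signals. Its main site, chr16:50560949-50561796, inside the gene, was among the strong peaks of Panc10.05 (89.8 and 90.4 with P1-α2, 90.4 and 94.8 with P2-α8) and of BxPC3 P1-α2 (75.7 and 94.4), and was called in 1 BxPC3 P2-α8 list (57.4). The NKD1-window site chr16:50668563-50669265 lies inside the neighbouring gene SNX20 and was called in the 4 Panc10.05 lists only, at 86.7, 86.0, 94.6 and 96.6. Panc10.05 had 3 and 4 NKD1 peaks with P1-α2 and 7 and 6 with P2-α8, and BxPC3 had 3 and 3 with P1-α2 and 1 and 0 with P2-α8. In each line the isoform groups did not overlap, and they were ordered in opposite ways. That held at 3 of the 10 genes (CTNNB1, EPHB2 and NKD1), against 16.9% of all genes with a peak in the lists of these lines, and the mean number of peaks per gene over all genes was ordered likewise, at 2.69 with P1-α2 and 3.46 with P2-α8 in Panc10.05 and 2.98 and 1.09 in BxPC3. All 6 AsPC1 pan lists were without an NKD1 peak.

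CTNNB1, the gene of β-catenin, had peaks close to its start at places that differed by line. As shown by the capitals of the sequence above, Panc10.05 P2-α8 had a peak across the start in both libraries (54.5 and 37.7). The merged site, chr3:41198891-41199592, also took in a peak of 1 AsPC1 sgP2 list (21.8) that ended before the start, at 41199226. AsPC1 instead had a peak 1.21 kb inside the gene, chr3:41200187-41201307, in all 6 pan lists, at 83.8 and 55.9 with sgNC, 85.5 and 76.2 with sgP1 and 58.5 and 49.7 with sgP2. That inner site was called in 1 BxPC3 P1-α2 list (38.2) and in no Panc10.05 list. The most frequent CTNNB1-window site, chr3:41274746-41275358, lies inside ULK4 and was called in 9 lists, among them both sgNC lists (51.2 and 16.4) and none with sgP1 or sgP2.

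TCF7L2, which encodes the TCF factor that partners β-catenin in the gut, had the most peaks of the 10 genes, 121 over all lists. Each Panc10.05 list held 5 to 8 TCF7L2 peaks, each BxPC3 list 6 to 10 and each AsPC1 pan list 7 to 12. The site just before its start, chr10:112948962-112950672, was called in all 14 pan lists. As merged, the site takes in the TCF7L2 sequence shown above, which the peaks of 7 lists reached. It stood at 78.7 and 67.9 in Panc10.05 P1-α2, 68.0 and 42.3 in Panc10.05 P2-α8, 54.7 and 28.9 in BxPC3 P1-α2, and 43.9 and 4.7 in BxPC3 P2-α8. The AsPC1 percentiles of the site were 90.4 and 83.8 with sgNC, 79.4 and 91.8 with sgP1, and 83.7 and 89.2 with sgP2. A site 45.9 kb before the start, chr10:112903954-112904623, was also in all 14 pan lists, at 20.2 to 91.2.

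Inside TCF7L2, chr10:113073538-113074400 and chr10:113086978-113087862 were each called in 13 of the 14 pan lists, across all 3 lines. Other sites inside the gene differed by line. The site chr10:113093403-113094444 was called in all 4 BxPC3 lists (61.1 and 59.1 with P1-α2, 9.3 and 63.2 with P2-α8) and in all 6 AsPC1 pan lists (20.2 to 77.1), and in no Panc10.05 list. A further TCF7L2 site, chr10:113112280-113113689, was called in the 6 AsPC1 pan lists alone, at 35.7 to 81.2. The TCF7L2 site chr10:113059858-113060726 was called in all 6 AsPC1 pan lists and in both BxPC3 P2-α8 lists (14.5 and 40.5), but in neither BxPC3 P1-α2 list.

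**Figure D3:**
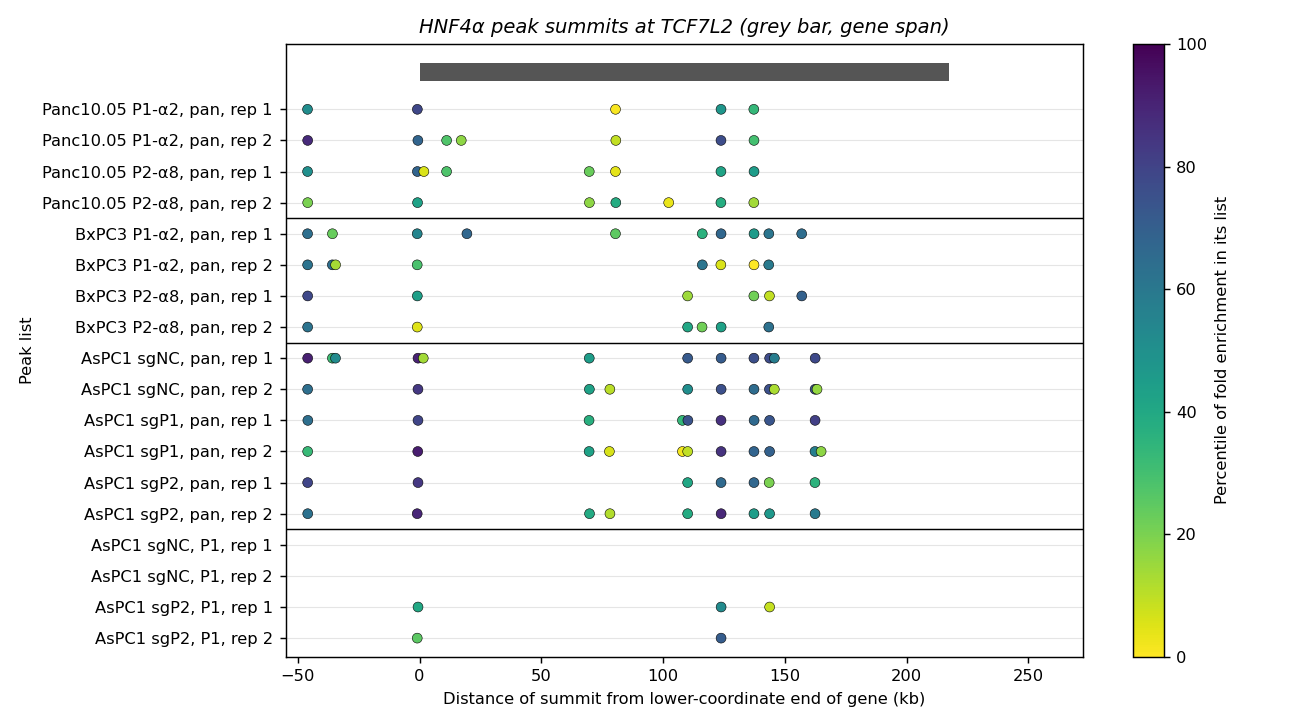
Positions of HNF4α peak summits at TCF7L2 (x axis, distance in kb from the start of the gene; rows, the 18 lists; colour, percentile of fold enrichment in its list; grey bar, gene span). The summits near the start and 45.9 kb before it recur in all 14 pan lists, while several inside the gene are confined to single lines.

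Of the stem cell and crypt genes, ASCL2, a basic helix-loop-helix factor of intestinal stem cells, had its called peaks in Panc10.05 apart from 1 in BxPC3. All 5 of its sites lay outside the gene, which spans only 2.1 kb. Panc10.05 had 1 and 3 ASCL2 peaks with P1-α2 and 5 and 5 with P2-α8, one of the 5 genes without overlap named above (27.1% of all genes), BxPC3 P1-α2 had 1 and 0, and every other list had 0. The ASCL2 site chr11:2256791-2257432, 11.4 kb from the gene, stood at 82.0 and 79.2 in the P2-α8 lists of Panc10.05, at 37.0 in 1 P1-α2 list and at 26.5 in 1 BxPC3 P1-α2 list. At chr11:2247154-2248039 the ASCL2 percentiles were 29.6 and 40.7 with P1-α2 and 76.6 and 77.2 with P2-α8, all in Panc10.05.

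SOX9, a factor of progenitor and duct cells, had 6 sites, of which 5 lay outside the gene. Its most frequent site, chr17:72092666-72093287, 28.1 kb from the gene, was called in all 4 Panc10.05 lists (24.9 and 79.7 with P1-α2, 66.6 and 82.1 with P2-α8), in both BxPC3 P1-α2 lists (55.3 and 74.1) and in 1 BxPC3 P2-α8 list (40.7). Each sgNC library of AsPC1 had 1 SOX9 peak, but at different sites, at percentiles 25.9 and 10.3. No SOX9 peak was called with sgP1 or sgP2.

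EPHB2, the ephrin receptor that Wnt signals raise at the crypt base, held a site that was strong in every pan list. The EPHB2 site chr1:22745746-22746596, 35.3 kb into the gene, stood at 74.4 or above in every pan list and reached 98.5 in 1 BxPC3 P1-α2 list. The EPHB2 site chr1:22689401-22689925, 21.2 kb before the start, was called in all 6 AsPC1 pan lists (79.0 to 93.2), in both P1-α2 lists of Panc10.05 (21.1 and 64.7) and of BxPC3 (87.6 and 73.3) and in 1 BxPC3 P2-α8 list (72.1), and in neither Panc10.05 P2-α8 list. Inside LACTBL1, 38.2 kb beyond EPHB2, chr1:22959388-22960154 was called in all 8 Panc10.05 and BxPC3 lists at 72.6 or above and in no AsPC1 list.

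**Figure D4:**
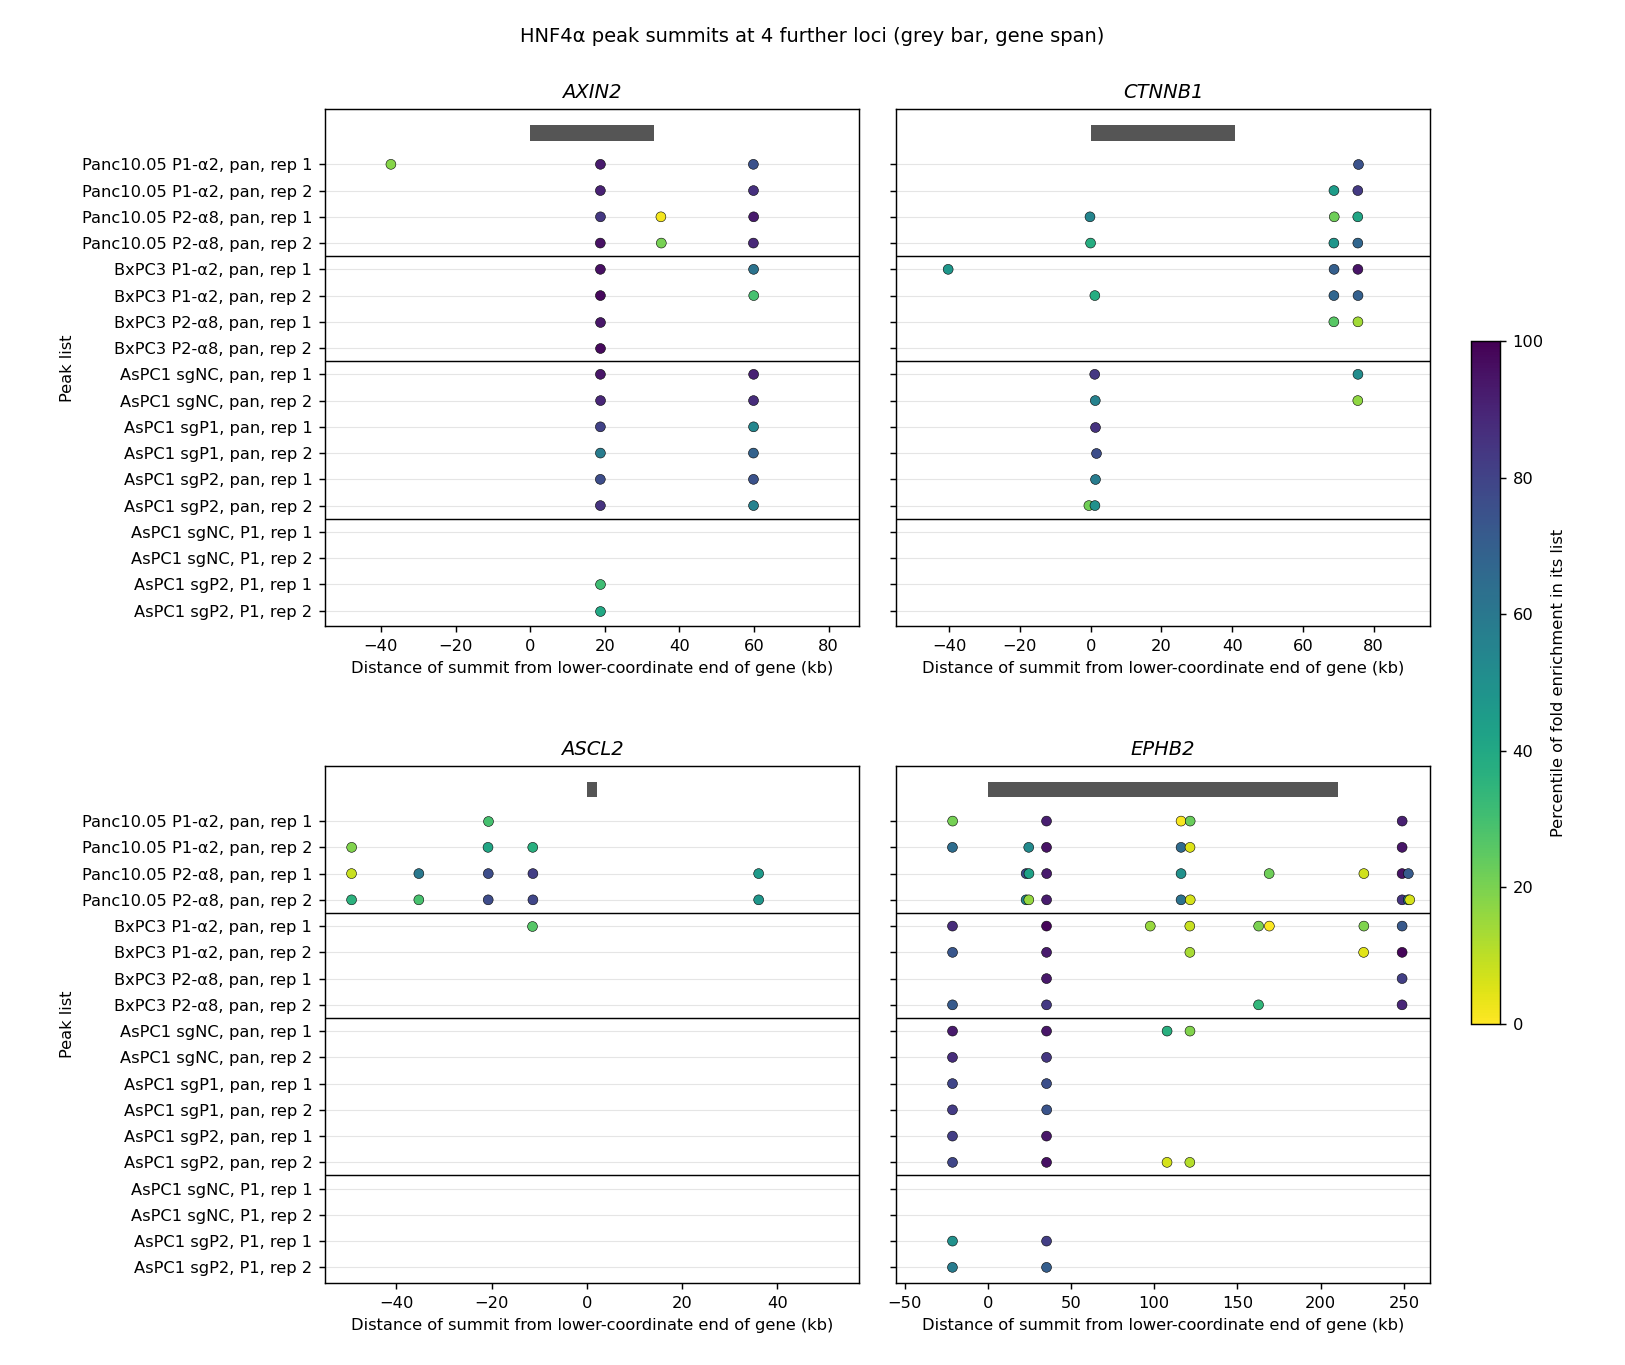
Positions of HNF4α peak summits at AXIN2, CTNNB1, ASCL2 and EPHB2 (x axis, distance in kb from the lower-coordinate end of the gene; rows, the 18 lists; colour, percentile of fold enrichment in its list; grey bar, gene span). The AXIN2 and EPHB2 summits inside the genes recur in all 14 pan lists, and the ASCL2 summits lie in Panc10.05 apart from 1 in BxPC3 P1-α2.

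The first comparison asked how the induced isoforms differ. In Panc10.05 the 10 loci held 24 and 35 peaks with P1-α2 (29.5 ± 7.78, SD, n = 2) and 49 and 45 with P2-α8 (47 ± 2.83, SD, n = 2). P2-α8 was higher without overlap, and P1-α2 had 0.63 times its number. The difference was −17.5 peaks, and −6 with lists set to equal length. Groups of 2 libraries allow no exact two-sided permutation p below 0.333, and this difference gave p = 0.333 (0.444 after Benjamini-Hochberg adjustment over 8 comparisons). Replicates are those the labels name, and p-values measure the spread between these libraries. Per 1000 peaks of the list the values were 0.967 and 1.025 against 1.253 and 1.337, also without overlap (exact permutation p = 0.333).

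By site, 12 of the 60 sites that the Panc10.05 lists held at these loci were in both P2-α8 lists and neither P1-α2 list, against 10.9% of all 49247 sites of these lists. The 12 were 3 at NKD1, 2 each at EPHB2, ASCL2 and ZNRF3, and 1 each at CTNNB1, TCF7L2 and AXIN2. In the opposite direction, 1 of 60 was in both P1-α2 lists and neither P2-α8 list, against 3.64% of all sites, and it was the EPHB2 site 21.2 kb before the start. All 4 lists shared 20 of the 60, against 38.0% of all sites.

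In BxPC3 the order was the opposite, P1-α2 giving 41 and 28 peaks (34.5 ± 9.19, SD, n = 2), whereas the P2-α8 libraries held 14 and 15 (14.5 ± 0.71, SD, n = 2). P1-α2 had 2.38 times the number, without overlap (exact permutation p = 0.333, adjusted 0.444). More peaks in each P1-α2 list than in either P2-α8 list were found at 6 of the 10 genes, against 67.4% of all genes with a peak in these lists. The P2-α8 lists of BxPC3 were also shorter as a whole, with 12681 and 14666 peaks against 41808 and 33737. Per 1000 peaks the direction turned, to 0.981 and 0.83 with P1-α2 and 1.104 and 1.023 with P2-α8 (difference −0.158, exact permutation p = 0.333), and with lists set to equal length the difference in number was −2.5. Of 44 sites, 8 were in both P1-α2 lists only, against 28.2% of all sites. These 8 were 2 each at RNF43, NKD1 and EPHB2 and 1 each at AXIN2 and TCF7L2. The 1 site of both P2-α8 lists only, against 0.129% of all sites, was the TCF7L2 site chr10:113059858-113060726. A further 6 of the 44 were in all 4 BxPC3 lists, against 18.3% of all sites.

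The isoform difference in Panc10.05 minus that in BxPC3 was −37.5 peaks, with an exact permutation p of 0.0556, the smallest that 36 labellings allow. Per 1000 peaks it was −0.141 (exact permutation p = 0.5556), and with lists set to equal length it turned to 1 (exact permutation p = 0.9444). Dose differed between the isoforms in Panc10.05 and not in BxPC3, and its part in the result was not tested.

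**Figure D5:**
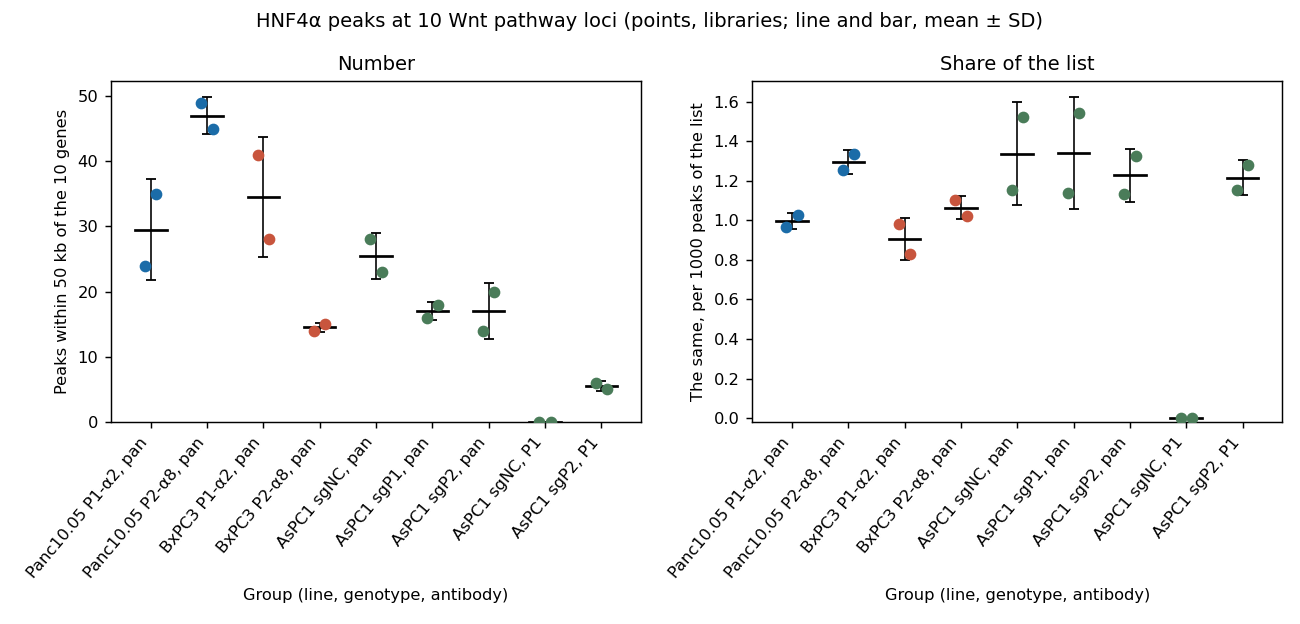
HNF4α peaks within 50 kb of the 10 genes in each library, as a number (left) and per 1000 peaks of its list (right); points are libraries, horizontal lines group means and bars SD (n = 2). The number is higher with P2-α8 in Panc10.05 and with P1-α2 in BxPC3, while the share of the list is higher with P2-α8 in both lines.

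Between lines under the same isoform, P1-α2 gave 41 and 28 peaks in BxPC3 and 24 and 35 in Panc10.05, which overlapped (exact permutation p = 0.667, adjusted 0.762). The difference of 5 peaks turned to −1.5 without the first BxPC3 library and to −0.5 without the first Panc10.05 library. Sites of both BxPC3 P1-α2 lists only numbered 6 of 56, against 18.6% of all sites, and 3 of the 6 were at TCF7L2. Both Panc10.05 P1-α2 lists alone held 4 of 56, against 9.28%, at NKD1, ASCL2, EPHB2 and SOX9. With P2-α8, BxPC3 had 0.31 times the number of Panc10.05, without overlap (exact permutation p = 0.333, adjusted 0.444), in lists of 12681 and 14666 peaks against 39111 and 33646. The difference of −32.5 peaks shrank to −2 with lists set to equal length (exact permutation p = 1). Both Panc10.05 P2-α8 lists alone held 25 of 63 sites, against 38.4% of all sites, among them 5 at NKD1, 5 at ASCL2, 4 at EPHB2 and 3 at ZNRF3. Both BxPC3 P2-α8 lists alone held 2 of 63, against 4.07%, and both were at TCF7L2. All 4 P2-α8 lists shared 5 of 63, against 13.1%, and all 4 P1-α2 lists 18 of 56, against 23.8%. Doxycycline doses differed between these lines, so line and dose cannot be told apart.

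Over all 7 pan groups, 55 of the 85 sites were in both lists of at least 1 group. Of these, 20 (36.4%) were found so in Panc10.05 only, against 26.9% of all such sites, 5 (9.1%) in BxPC3 only, against 21.3%, and 7 (12.7%) in AsPC1 only, against 9.6%. With −log10 q held to 8 or more in every list, the Panc10.05-only sites were 20 of 52 (38.5%, against 29.9% of all sites), the BxPC3-only 5 (9.6%, against 22.8%) and the AsPC1-only 4 (7.7%, against 5.8%). In the lists as deposited, sites of all 3 lines numbered 11 (20.0%, against 12.7% of all sites), 4 at TCF7L2, 2 each at AXIN2, RNF43 and EPHB2 and 1 at CTNNB1. The Panc10.05-only sites included all 5 at ASCL2, while no NKD1, ZNRF3, ASCL2 or SOX9 site was in both lists of an AsPC1 group.

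At the level of whole loci, 9 of the 10 had a peak in both libraries of Panc10.05 P1-α2 (74.5% of protein-coding genes did), 9 with Panc10.05 P2-α8 (79.5%), 9 with BxPC3 P1-α2 (76.6%) and 4 with BxPC3 P2-α8 (45.4%). The 4 were AXIN2, TCF7L2, RNF43 and EPHB2. AsPC1 had 7 with sgNC (58.5%), 6 with sgP1 (50.6%) and 6 with sgP2 (52.0%), the difference being SOX9. The median number of peaks per gene was 4.5 for the 10 genes and 2.5 for all genes in Panc10.05 P2-α8, and in the other pan groups 0.75 to 2.75 for the 10 genes and 0.5 to 2.5 for all genes.

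The guides in AsPC1 addressed the endogenous isoforms. The 10 loci held 28 and 23 pan peaks with sgNC (25.5 ± 3.54, SD, n = 2), 16 and 18 with sgP1 (17 ± 1.41, SD, n = 2) and 14 and 20 with sgP2 (17 ± 4.24, SD, n = 2). Both guides lay below the control without overlap, each at 0.67 times its number (exact permutation p = 0.333, adjusted 0.444, for each), and the 2 comparisons share the sgNC libraries. Per 1000 peaks of the list, sgNC had 1.153 and 1.521, sgP1 had 1.14 and 1.54, and sgP2 had 1.134 and 1.323, all overlapping (exact permutation p = 1 and 0.667).

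Of 33 sites in the sgNC and sgP1 lists, 4 were in both sgNC lists and neither sgP1 list, against 8.97% of all sites, and they were 2 at RNF43, 1 at TCF7L2 and the CTNNB1-window site in ULK4. The sgP1 lists alone shared 1 of 33, against 0.409%, a TCF7L2 site at percentiles 33.2 and 1.9. For sgP2, 4 of 31 were in both sgNC lists only, against 7.2%, and they were the TCF7L2 site, the CTNNB1-window site and 1 RNF43 site of the sgP1 comparison and another RNF43 site. There were 0 in both sgP2 lists only, against 0.407%. Between the guides, the means did not differ (17 and 17, exact permutation p = 1), 1 of 23 sites was in both sgP1 lists only, against 2.75%, and 0 in both sgP2 lists only, against 4.32%. All 4 lists shared 14 of the 33 sites in the sgP1 comparison, against 32.0% of all sites, and 14 of the 31 in the sgP2 comparison, against 34.0%. The guides shared 13 of 23, against 38.0%. When −log10 q had to reach 8, the sites specific to either group fell from 5 to 2 for sgP1 and from 4 to 1 for sgP2.

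The antibody to P1 isoforms gave 0 and 0 peaks at the 10 loci with sgNC, in lists of 697 and 260 peaks, and 6 and 5 with sgP2 (5.5 ± 0.71, SD, n = 2), in lists of 5200 and 3916 (exact permutation p = 0.333, adjusted 0.444). Both sgP2 lists held 5 of the 6 sites that sgNC lacked, against 36% of all sites, and 0 of 6 were in both sgNC lists only, against 0.0638%, or in all 4 lists, against 3.04%. With lists set to equal length, 0 sites were specific to either group and the difference in number was 0. The 5 were EPHB2 chr1:22745746-22746596 (81.7 and 70.4), TCF7L2 chr10:113073538-113074400 (52.1 and 71.1), EPHB2 chr1:22689401-22689925 (49.8 and 58.4), AXIN2 chr17:65546891-65547693 (31.1 and 40.1) and the TCF7L2 site just before the start (40.0 and 25.1). There the peaks of this antibody covered chr10:112949223-112949818 and did not reach the start. The sixth site, TCF7L2 chr10:113093403-113094444, was called in 1 sgP2 list (8.6). All 6 sites were also called in every pan list of AsPC1. At these loci 6 of 6 and 5 of 5 P1-antibody peaks overlapped a pan peak of the same genotype (exact Clopper-Pearson 95% intervals 54.1 to 100% and 47.8 to 100%, for counting error only). The share over all P1-antibody peaks is not given, so whether this overlap is particular to these loci is not known. With this antibody, 3 of the 10 loci had a peak in both sgP2 libraries, AXIN2, TCF7L2 and EPHB2, against 23.7% of protein-coding genes, and 0 in both sgNC libraries, against 2.31%.

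The wider pathway was described with 67 further genes in 6 lists, and a peak in both libraries of a group was counted per gene. Of the 67, 50 (74.6%) had one in Panc10.05 P1-α2, 55 (82.1%) in Panc10.05 P2-α8, 50 (74.6%) in BxPC3 P1-α2 and 28 (41.8%) in BxPC3 P2-α8. The shares over all protein-coding genes were close, at 74.5%, 79.5%, 76.6% and 45.4%. AsPC1 had 42 (62.7%), 36 (53.7%) and 38 (56.7%) with sgNC, sgP1 and sgP2, against 58.5%, 50.6% and 52.0%. All 10 genes of the destruction complex and transducers had one in both Panc10.05 groups and in BxPC3 P1-α2, where 74.5% to 79.5% of all genes did. With the P1 antibody 4 of the 67 (6%) had one with sgNC, against 2.31% of all protein-coding genes, and 21 (31.3%) with sgP2, against 23.7%. LRP5, a Wnt co-receptor, and the nuclear factors BCL9L, TCF7L1 and TCF7 had a peak in all 18 lists, those of the P1 antibody with sgNC included. These and the next genes were picked for having a peak in the most lists, and the share of all genes with as many is not given. AXIN1, DVL2 and GSK3B had one in 17 lists, and the secreted inhibitors NOTUM, WIF1 and SFRP5 and the ligands WNT11 and WNT7B in 16. Among the 12 stem cell genes LRIG1 led with 16 lists. In BxPC3 P2-α8, 2 of the 12 had a peak in both libraries, EPHB3 and LRIG1 (16.7%, against 45.4% of all genes). The share of the 12 was below that of all genes in every pan group, the highest being 75% against 79.5% in Panc10.05 P2-α8.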

How the data were processed

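HNF4α ChIP-seq was deposited as 18 narrowPeak lists, 1 per immunoprecipitated library; 14 input libraries were left out. Crosslinking used disuccinimidyl glutarate, then formaldehyde, per the labels' protocols. Bowtie2 2.2.9, MACS2 2.2.7 and the builds hg38 and mm10 are named, with no role, in the submitters' processing notes. In the deposited lists fold enrichment is a ratio, p-values and q-values are −log10, and a score is given; the authors called peaks per library. Gene spans came from RefSeq (GRCh38.p14). That build was checked: in 18 of 18 lists more summits lay within 1 kb of a gene end (5.33% to 18.8%) than after a shift of 100 kb (3.46% to 4.88%).

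Peaks overlapping by 1 bp were merged into sites over all lists, or over the 4 lists of a comparison. Groups were compared by exact two-sided permutation of libraries (Python 3.11.15, scipy 1.17.1). The merging of sites was checked against bedtools 2.31.1 and, with simulated lists, for recovery of known sites. Alternatives were windows of 10 and 100 kb, a −log10 q of at least 8 or 20, equal list lengths, shares per 1000 peaks, other overlap and assignment rules, and left-out libraries. Same-numbered libraries were not treated as paired (correlations of replicate differences −0.0674 to 0.068). The labels do not say whether replicate numbers mark a shared batch, and these correlations cannot show it. Each gene's named site is the one in most lists; sites near starts, in all 14 pan lists or specific to a group (up to 3) were also named, and further sites were named after their values were seen. Members and lists were chosen with earlier results of these data known.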

Additional observations from a re-analysis of the deposited data

Results flagged for a closer look

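The isoform difference in peak number ran in opposite directions in the 2 induced lines at 3 genes and over all 10 loci, with every library of one isoform above every library of the other. At CTNNB1, Panc10.05 had 1 and 2 peaks with P1-α2 and 3 and 3 with P2-α8, and BxPC3 had 3 and 3 against 2 and 0, a difference between lines of −3.5 in the mean difference. Sites inside the neighbour ULK4 held all of these peaks in Panc10.05 P1-α2 and BxPC3 P2-α8, and most of them in the other groups. At EPHB2 the numbers were 5 and 6 against 8 and 8 in Panc10.05 and 8 and 5 against 2 and 4 in BxPC3, a difference of −6. At NKD1 they were 3 and 4 against 7 and 6, and 3 and 3 against 1 and 0, a difference of −5.5. The differences for single genes were not tested, and the same pattern was found at 16.9% of all genes with a peak in these lists. Over all 10 loci the difference was −37.5 peaks (exact permutation p = 0.0556, the smallest possible). The P2-α8 lists of BxPC3 were the shortest of these 8 lists, with 12681 and 14666 peaks, and the total per 1000 peaks did not run in opposite directions.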

How the results depend on the processing

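Depth is unknown, and 2 libraries a group allow no exact permutation p below 0.333, so no difference in peak number could pass 0.05 under any setting. Per 1000 peaks and at equal list length, which remove the length of the lists, directions turned: the BxPC3 isoform difference to −0.158 and −2.5, P1-α2 in BxPC3 minus Panc10.05 to −0.091 and −1.5, sgP1 minus sgNC to 0.003 (per 1000 only) and the isoform difference between lines to 1 (equal length only), while the P1-antibody difference fell to 0 at equal length. At equal length the other differences shrank to −6 (Panc10.05 isoforms), −2 (P2-α8 between lines), −1 (sgP1 minus sgNC) and −3 (sgP2 minus sgNC). Leaving out each library gave −1.5 to 11.5 for P1-α2 in BxPC3 minus Panc10.05 and −3 to 3 for sgP1 minus sgP2, which is 0 with all libraries. The other 6 differences in number kept their direction under the windows, the −log10 q minimums, the assignment by any base and each left-out library. Separation of the groups was not always kept. For sgP1 minus sgNC the exact permutation p rose from 0.333 to 0.667 under either −log10 q minimum, with differences of −4 (minimum 8) and −3 (minimum 20). The Panc10.05 isoform difference was −11 under the minimum of 20, also with an exact permutation p of 0.667. In these cases the libraries of one group no longer all lay above those of the other.

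The number of sites specific to either group moved most. With a 10 kb window it was 8 for the Panc10.05 isoforms (13 at 50 kb), 4 for the BxPC3 isoforms (9), 5 for P1-α2 between lines (10) and 16 for P2-α8 between lines (27). With a 100 kb window it was 17 for the BxPC3 isoforms and 21 for P1-α2 between lines. At a −log10 q of at least 8 it was 2 for sgP1 against sgNC (5), 1 for sgP2 against sgNC (4), 0 between the guides (1) and 3 for the P1 antibody (5). At a −log10 q of at least 20 these were 7 for the Panc10.05 isoforms, 1 for sgP1, 1 for sgP2, 0 for the P1 antibody and 17 for P2-α8 between lines. At equal list length they were 4 for the BxPC3 isoforms, 2 for sgP1, 0 for sgP2, 0 for the P1 antibody, 6 for P1-α2 and 10 for P2-α8 between lines. With summits within 100 bp the number between the guides was 2. Leaving out a library asks for a peak in 1 list in place of 2 and gave 15 to 23 for the Panc10.05 isoforms, 11 to 21 for the BxPC3 isoforms, 6 to 13 for sgP1, 5 to 10 for sgP2, 2 to 5 between the guides and 13 to 22 for P1-α2 between lines. Other causes were not tested.

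Loci with a peak in both libraries rose to 7 for BxPC3 P2-α8 with a 100 kb window. At a −log10 q of at least 20 they numbered 4 for sgNC, 3 for sgP1, 3 for sgP2 and 0 for the P1 antibody with sgP2, which was also 0 at equal list length. Exchanging labels within replicate numbers (a replicate block) allows no p below 0.5 for a difference and gave 0.125 for the isoform difference between lines, and changed no call.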
